A study of Arabidopsis thaliana with 14 samples.

Results

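Regions enriched for H3K36me3, histone H3 trimethylated at lysine 36, were examined where they were centred in the 5′ UTR exons of protein-coding genes of Arabidopsis thaliana. A region was taken when its centre lay in exon sequence upstream of the coding start of a transcript and in the coding sequence of no transcript, by the RefSeq annotation of TAIR10.1. This held for 4432 of 50290 regions at 16 °C and for 4202 of 52588 regions at 25 °C, together 8634 of 102878. Of the regions on the nuclear chromosomes, they made up 8.83% and 8.01%. The choice used the position of the centre only, so the heights and temperatures below had no part in it. The centre is the midpoint of a region, so its width bears on where the centre falls. Widths, and counts by centre, are thus not independent of the choice.

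The regions came from chromatin immunoprecipitation and sequencing (ChIP-seq) of Col-0 wild type shoot tissue, from which leaves had been removed to enrich the shoot apical meristem. Short days of 8 h light (16 h dark) at 16 °C were given to all plants for 5 weeks, and no mutant or transgene was used. Tissue was taken from plants still at 16 °C and from plants that had spent 1 day at 25 °C, with 4 H3K36me3 samples per temperature, 3 H3 samples per temperature and 0.5 g of tissue per sample. The H3K36me3 samples of a temperature had been pooled into 1 list, so values have no spread between replicates, read depth per sample is unknown, and no difference between temperatures has a replicate check. The antibody label of replicate A at 25 °C names H3 whereas its title names H3K36me3, and the 25 °C list could not be read without it. H3K36me3 does not measure expression, so the tissue label could not be settled from marker genes. Of the 5 meristem genes STM, WUS, CLV3, KNAT1 and CUC2, none had more than 5.15% of its body inside regions in either list. Of 5 leaf genes, LHCA3 reached 19.4% at 16 °C and 44.8% at 25 °C, RCA 6.11% and 21.9%, and CA1 3.30% and 7.08%. RBCS1A went from 9.27% at 16 °C to 0 at 25 °C, and LHCB1.1 was at 0 in both.

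As background, H3K36me3 is set along transcribed genes by SET domain methyltransferases, SDG8 and SDG26 in Arabidopsis, and in plants it is found mainly in the 5′ part of the gene body. The 5′ UTR, or leader, is transcribed but lies before the coding sequence. Its first exon starts at the transcription start, it may hold upstream open reading frames that lower translation, and it may be split by an intron. Introns in leaders are known in plants for raising the expression of their gene, as in genes for actin, ubiquitin and elongation factor 1-alpha.

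A gene was said to have a leader intron when its representative transcript, the one with the longest coding sequence, had an intron upstream of its coding start. Of 23524 nuclear protein-coding genes with 5′ UTR exon sequence, 3320 (14.1%) had a leader intron, 2371 (10.1%) had one in other transcripts only, and 17833 (75.8%) had none. The first leader intron had a median length of 229 bp, with 91 bp and 577 bp as the 10th and 90th percentiles. There was a single leader intron in 3056 genes, 2 in 231 and 3 or more in 33.

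The start and end of the first leader intron are printed for 6 genes. These genes have a leader intron and held the widest regions over both lists. The splice sites divide the leader, though not in every case the region in it. For LIP1 the widest region of each list starts inside the intron, so its 5′ splice site lies outside that region. Each printed sequence is 20 bases of intron from RefSeq TAIR10.1, 5′ to 3′ on the strand of the gene. The splice site dinucleotides GT and AG are in capitals. None of these 6 introns held a match to the intron motif described further on.
AT1G06890 intron start, chr1:2114416-2114435, minus strand: GTgagtctctctctctctct
AT1G06890 intron end, chr1:2114224-2114243, minus strand: ttttctccattttgcttcAG
AT1G48210 intron start, chr1:17799416-17799435, plus strand: GTctgtgtctgaacaatctc
AT1G48210 intron end, chr1:17799498-17799517, plus strand: ttttgtcttttctcttttAG
PHO2 intron start, chr2:14282610-14282629, minus strand: GTacgttcctccttctccaa
PHO2 intron end, chr2:14282322-14282341, minus strand: aacaaatgacgctgttgcAG
AT5G52530 intron start, chr5:21318010-21318029, plus strand: GTaaaggctcatagagtctt
AT5G52530 intron end, chr5:21318141-21318160, plus strand: tgaaaggttattgcttgcAG
AT5G53140 intron start, chr5:21549021-21549040, plus strand: GTttgttatcttaatttggg
AT5G53140 intron end, chr5:21549162-21549181, plus strand: tgaattttttctatatgcAG
LIP1 intron start, chr5:25910124-25910143, plus strand: GTaagcgtcaacgaggtcaa
LIP1 intron end, chr5:25910212-25910231, plus strand: ggttttggtgcgttgtgtAG

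Next, it was asked whether genes with an intron in the leader held such regions more often. A region centred in a 5′ UTR exon was found in 3811 of the 23524 genes (16.2%) at 16 °C and in 3637 (15.5%) at 25 °C. Genes with a leader intron held one in 1112 cases at 16 °C, which is 33.5% (Wilson 95% interval 31.9 to 35.1). At 25 °C it was 1076 cases, 32.4% (30.8 to 34.0). Of genes with no leader intron, 1833 or 10.3% (9.84 to 10.7) held one at 16 °C and 1717 or 9.63% (9.20 to 10.1) at 25 °C. The difference was 23.2 percentage points at 16 °C (Newcombe 95% interval 21.6 to 24.9) and 22.8 points in the 25 °C list (21.1 to 24.4). These intervals hold the counting error alone, since genes are no replicates of one another. Genes with a leader intron in other transcripts only were at 36.5% and 35.6%. Genes with no intron in any place of the representative transcript were lowest, at 5.77% and 5.38%.

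Leaders with an intron are also longer, with a median of 331 bp of 5′ UTR exon against 158 bp. When genes were therefore compared within 10 bins of 5′ UTR exon length, the difference was 13.3 points at 16 °C and 13.4 at 25 °C. In the longest bin, from 508 to 3615 bp, 59.3% of the genes with a leader intron held a region at 16 °C and 60.5% at 25 °C, against 36.4% and 35.0% of those without. In the bin from 55 to 90 bp the classes were alike in level, with 3.75% in both lists for genes with a leader intron and 3.64% and 3.99% for those without. Only 80 genes of that bin had a leader intron, and their interval ran from 1.28% to 10.5%. Within bins of gene length the difference was 19.9 and 20 points. Genes with a leader intron carried a region anywhere in the gene more often, with 80.5% at 16 °C and 83.5% at 25 °C, against 57.1% and 60.7%. Among genes with a region anywhere in the body, the difference in regions centred in the leader was 23.6 and 22.9 points, an alternative added after the data had been seen.

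**Figure D1:**
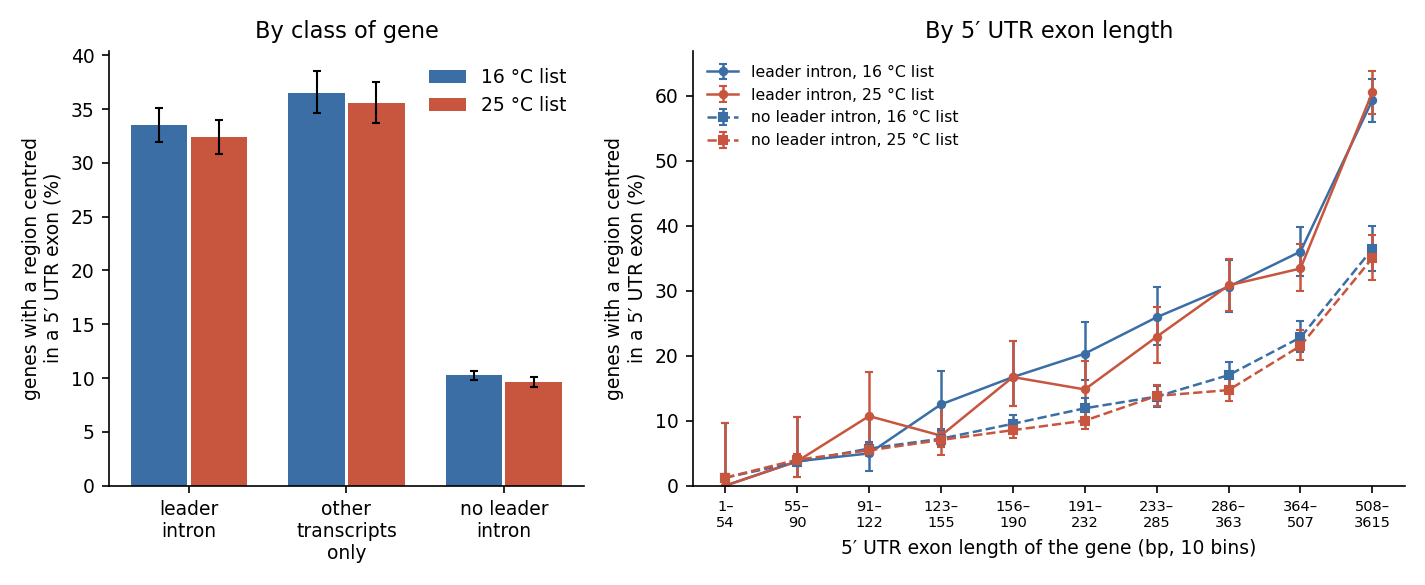
Share of genes (%) with a region centred in a 5′ UTR exon, by class of gene (left, bars) and by length of 5′ UTR exon in 10 bins in bp (right, points), for the 16 °C and the 25 °C list. Error bars are Wilson 95% intervals. Genes with a leader intron stood at 33.5% and 32.4% and genes without at 10.3% and 9.63%, and in the longest bin at 59.3% and 60.5% against 36.4% and 35.0%.

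Per kilobase of 5′ UTR exon, genes with a leader intron held 1.06 regions at 16 °C and 0.992 at 25 °C, and genes without held 0.562 and 0.526. The ratio was 1.88 (1.76 to 2.02) at 16 °C and 1.89 (1.76 to 2.03) at 25 °C. In bases rather than centres, regions covered 28.0% of the 5′ UTR exon sequence of genes with a leader intron at 16 °C and 34.5% at 25 °C. They covered 18.4% and 22.5% in genes without one. The length of the leader intron itself made little difference. Over 4 equal classes of its length, from 14 to 122 bp up to 392 to 9724 bp, the share of genes with a region was 32.9%, 32.6%, 34.5% and 34.0% at 16 °C, and 31.8%, 31.2%, 33.4% and 33.3% at 25 °C. Each of these lies within the intervals of the others.

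The cover of the leader rose to a maximum between 300 and 600 bp from the gene start and was lower from 900 to 1000 bp. In the first 100 bp, regions covered 16.6% of the 5′ UTR exon bases at 16 °C where the gene had a leader intron and 12.8% where it had none. From 400 to 500 bp it was 41.1% against 30.1%, and from 900 to 1000 bp 34.5% against 15.9%. At 25 °C the same bins held 18.8% against 16.4%, 48.9% against 35.4%, and 42.1% against 18.6%. Averaged over distance bins, the difference in covered sequence was 6.54 points at 16 °C and 8.84 at 25 °C. These lie below the 9.53 and 12 points obtained when distance was left aside. The bins hold bases of the representative transcript only, whereas the latter values hold those of all transcripts. Farther out at 16 °C, the classes met at 21.9% from 1200 to 1300 bp, with 18.4% in genes with a leader intron against 26.4% in genes without from 1300 to 1400 bp, over 4651 and 1729 bases. At 25 °C that bin held 31.5% against 28.5%. The matching by distance was added after the data had been seen.

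**Figure D2:**
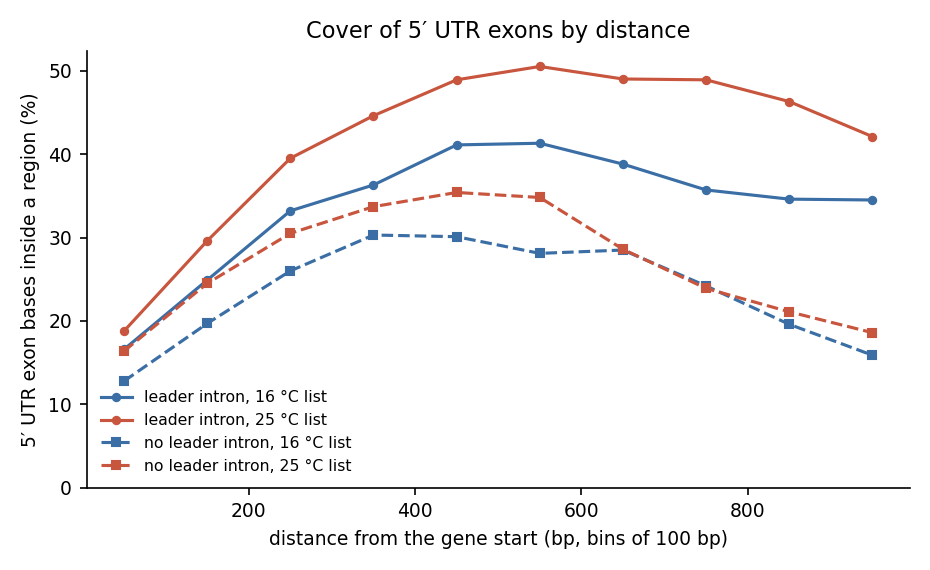
Percentage of 5′ UTR exon bases of the representative transcript that lie inside a region, in bins of 100 bp from the gene start (x axis, bp), for genes with a leader intron (solid lines) and without (dashed lines) in the 16 °C and 25 °C lists. The lines lie at 16.6% and 12.8% in the first bin at 16 °C and stand at 34.5% and 15.9% from 900 to 1000 bp, where the plot ends. Beyond it the classes met at 21.9% from 1200 to 1300 bp at 16 °C.

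Around the gene start, both classes had the largest share of genes with a region in the bin from 400 to 500 bp downstream. That share was 52.8% at 16 °C and 60.6% at 25 °C in genes with a leader intron, and 39.6% and 44.5% in genes without. The leader intron class was nearly level beyond that bin at 25 °C, with 60.2% from 500 to 600 bp and 60.5% from 600 to 700 bp. Seen from the coding start, the classes differed in place. In genes with a leader intron the maximum lay at the coding start. The last 100 bp before it and the first 100 bp after it were level. They stood at 51.1% and 51.0% at 16 °C, and at 61.7% and 61.9% at 25 °C. No shift of the maximum between the temperatures can be read from such level bins. In genes without a leader intron the maximum lay 200 to 300 bp inside the coding region, with 40.7% and 45.5%. The coding start was a median of 566 bp from the gene start in the first class and 147 bp in the second. From the first 5′ splice site, the maximum of genes with a leader intron lay 200 to 300 bp downstream at 16 °C (54.0%). At 25 °C the bins from 200 to 300 bp and from 300 to 400 bp were level, both at 61.8%. In genes without a leader intron the maximum lay within 100 bp after the splice site, with 43.7% and 49.2%. Of the 3 reference points, the gene start was the one at which the maxima of both classes fell in the same bin. In genes that overlap no other gene, the maximum at 25 °C for the leader intron class moved to the bin from 600 to 700 bp.

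**Figure D3:**
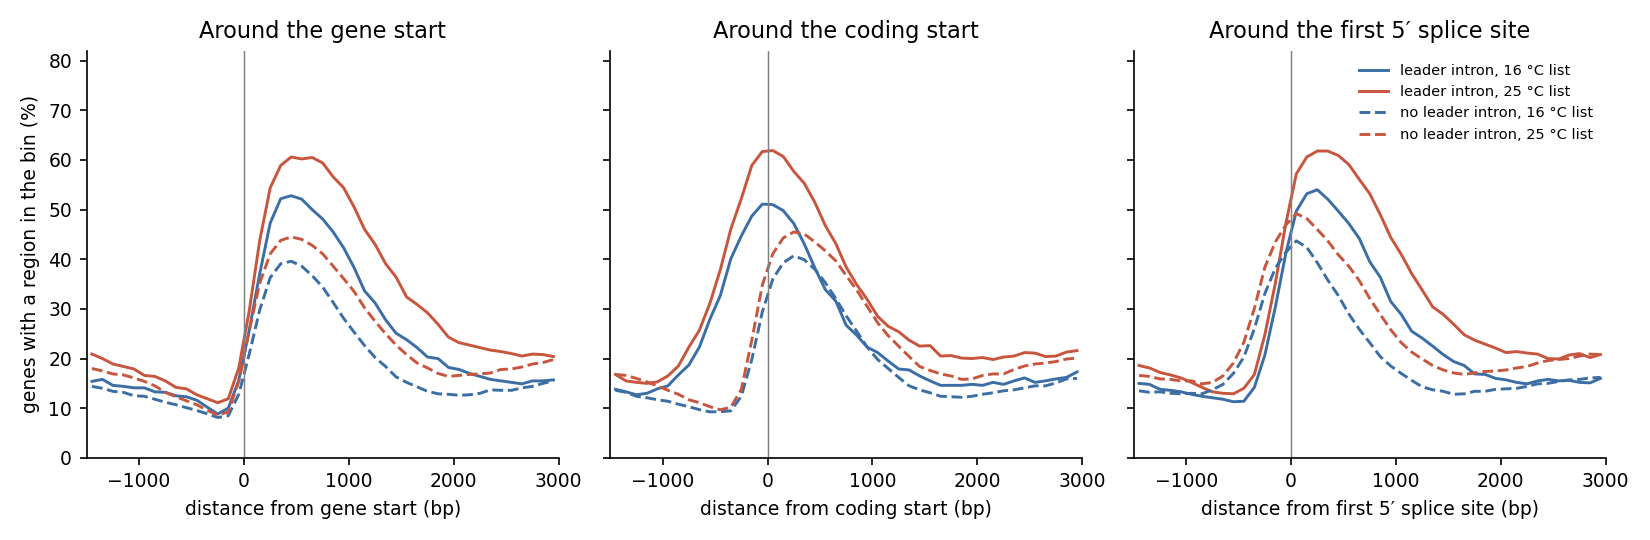
Percentage of genes that a region touches, in 100 bp bins around the gene start, the coding start and the first 5′ splice site (x axes, bp), for genes with a leader intron (solid) and without (dashed) in the 16 °C and 25 °C lists. After the gene start all 4 lines peak from 400 to 500 bp, at 52.8% and 60.6% against 39.6% and 44.5%. The leader intron line at 25 °C is nearly level as far as 600 to 700 bp (60.5%). Around the other reference points the classes peak at different places.

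Within the genes that had a leader intron, the parts of the transcript were covered unequally. Of the bases of the first 5′ UTR exon, 24.9% lay inside regions at 16 °C and 29.2% in the 25 °C list. Leader introns reached 35.5% and 44.6%, and the later 5′ UTR exons 35.2% and 46.0%. The coding sequence of the same genes was at 17.4% and 26.2%, and their coding introns at 21.4% and 31.7%. In genes without a leader intron, the first 5′ UTR exon was covered over 18.4% and 22.4%, their coding sequence over 18.4% and 24.8%, and their coding introns over 22.8% and 31.2%. Averaged over whole parts, coding sequence and coding introns thus had like cover in both classes, whereas the first 5′ UTR exon differed. Every part had higher cover in the 25 °C list. These averages were not matched by distance, and the classes also stood apart early in the coding region. From 100 to 200 bp after the coding start, a region touched 49.8% of genes with a leader intron against 39.3% without at 16 °C. At 25 °C it was 60.7% against 44.3%. From 600 to 700 bp it was 31.6% against 32.1% at 16 °C and 43.2% against 39.7% at 25 °C.

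**Figure D4:**
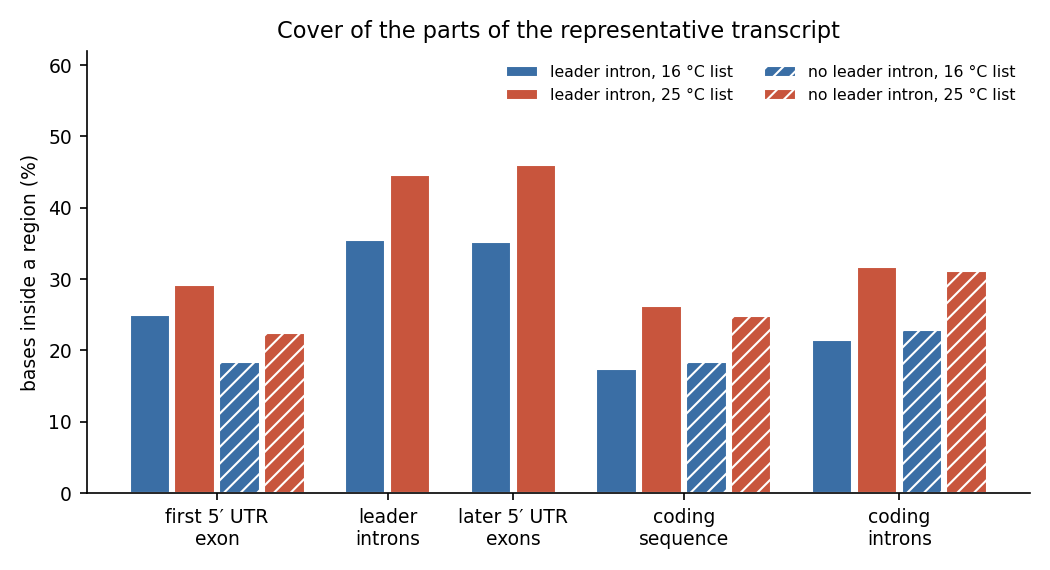
Percentage of bases inside a region for the parts of the representative transcript (y axis from 0), in genes with a leader intron (plain bars) and without (hatched bars) in the 16 °C and 25 °C lists. The leader introns (35.5% and 44.6%) and later 5′ UTR exons (35.2% and 46.0%) have the tallest bars, and the coding sequence of the 2 classes is close (17.4% and 26.2% against 18.4% and 24.8%).

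The regions themselves had a median width of 150 bp in both lists, the length to which reads had been extended. The 90th percentiles were 460 and 560 bp, narrower than for regions centred in coding sequence (670 and 880 bp) or in introns (580 and 850 bp). Over 1000 bp were 58 regions at 16 °C and 112 at 25 °C. The median height, the peak of read coverage in the region, was 264.3 at 16 °C and 274.5 at 25 °C, against 289.9 and 311.3 for regions centred in coding sequence. In genes with a leader intron the median height was 270.5 and 294.0, and in genes without 254.3 and 255.4. Their bases were 37.9% and 37.8% G or C, close to regions centred in introns (37.2% and 37.7%) and below those in coding sequence (41.8% and 41.2%).

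The centre lay a median of 249 bp from the gene start at 16 °C and 252.5 bp at 25 °C in genes with a leader intron, and 129 and 130 bp in genes without. In the first class, 71.5% and 70.8% of the centres were in the first 5′ UTR exon of the transcript that held them. In genes without a leader intron, 40.7% of the regions reached past the coding start at 16 °C and 37.8% at 25 °C, whereas 20.1% and 22.8% did so in genes with one. Of the bases of all these regions, 70.7% at 16 °C and 67.1% at 25 °C were 5′ UTR exon, 16.3% and 17.8% coding sequence, and 6.21% and 7.11% leader intron. In genes with a leader intron, that intron made up 15.2% and 15.9% of their bases. The annotation gave several transcripts for many genes. Of 4450 placements of a region in a gene at 16 °C, 3563 were also in 5′ UTR exon of the representative transcript, whereas 700 were in an intron of it and 187 upstream of its start. At 25 °C these were 3317, 704 and 192 of 4213. A single region lay in the leaders of 2 or more genes in 18 cases at 16 °C and 11 at 25 °C.

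To see whether the leader carried a sequence feature that the choice of regions had not used, the first leader intron was searched for TTNGATNTG, where N is any base. It is written after a motif described for plant introns that raise expression. On the strand of the gene, 507 of 3320 first leader introns (15.3%) held a match, against 2.26% on the opposite strand and 10.3% of the first introns of genes without a leader intron. Those first introns were shorter, with a median of 141 bp, and per kilobase the matches were 0.591 in leader introns and 0.501 in the others. Among genes with a region centred in the leader, 17.4% had a match at 16 °C and 18.3% at 25 °C, against 14.2% and 13.8% of those without a region. The difference was 3.27 points (0.665 to 5.99) at 16 °C and 4.49 points (1.84 to 7.27) at 25 °C. The interval covered 0 with regions wider than 150 bp, where it was 2.68 points (-0.446 to 6.13) at 16 °C and 2.85 (-0.293 to 6.32) at 25 °C, and at 16 °C with the stronger regions by −log10 p, where it was 2.28 (-0.825 to 5.71). Over the 4 classes of intron length from short to long, the shares with and without a region at 16 °C were 6.59% and 3.23%, 10.3% and 10.4%, 17.1% and 18.2%, and 35.1% and 25.2%. At 25 °C they were 8.33% and 2.47%, 11.6% and 9.79%, 19.5% and 17%, and 33.0% and 26.4%. The share was thus higher with a region in all 4 classes at 25 °C and in the shortest and longest at 16 °C. Most of these differences were small beside their Wilson intervals. In the shortest class at 25 °C the intervals stood apart, at 5.57% to 12.3% against 1.48% to 4.11%. So they did in the longest at 16 °C, at 29.8% to 40.8% against 21.8% to 29.0%. In all other classes they overlapped. T made up 43.1% of the bases of these introns in genes with a region and 41.8% in those without at 16 °C. At 25 °C it was 43.2% and 41.8%. Base composition was not matched in these comparisons or in that of the strands. A match is a description of the sequence and not a site. Genes named outside the rules given under data processing, such as UBQ10, are left aside here. Of the leader intron genes chosen by those rules, SAMDC and PRR3 held a match, shown with the motif in capitals within 25 bases of intron.
SAMDC, chr3:509765-509789, plus strand: tttttcctTTGGATTTGttttgtct
PRR3, chr5:24200804-24200828, minus strand: tattgaaaTTTGATTTGgcttgttt

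The comparison of the temperatures was then made for these regions. Of the 4432 regions at 16 °C, 2976 or 67.1% (65.8 to 68.5) overlapped a region of the 25 °C list. The same share over all nuclear regions was 64.4%. Of the 4202 regions at 25 °C, 2277 or 54.2% (52.7 to 55.7) overlapped a 16 °C region, against 51.0% over all. With a reciprocal overlap of 50% the shares fell to 16.0% and 16.1%. A region that was overlapped was often centred elsewhere in the other list. Of the 16 °C regions, 1461 (33.0%) met a 25 °C region centred in a 5′ UTR exon, 916 (20.7%) met one centred in coding sequence, 571 (12.9%) one centred in an intron, and 1456 (32.9%) met none. Of the 25 °C regions, 1399 (33.3%) met a 16 °C region in a 5′ UTR exon, 519 (12.4%) one in coding sequence, 324 (7.71%) one in an intron, and 1925 (45.8%) met none.

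By gene, 1540 genes held such a region in both lists, 2271 (9.65%) at 16 °C only and 2097 (8.91%) at 25 °C only. With a leader intron, the counts were 581, 531 and 495, and with none 450, 1383 and 1267. Where a gene held such a region in 1 list only, its leader was often touched by a region of the other list that was centred elsewhere. The leader of 1559 of the 2271 genes (68.6%) was touched by some 25 °C region, and that of 1025 of the 2097 genes (48.9%) by some 16 °C region. For genes with a leader intron these shares were 80.8% and 64.8%, and for genes with none 62.5% and 42.9%.

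The direction of the change in number depended on how a region was assigned to the leader. By the centre, the number of genes with a region fell by 36 from 16 °C to 25 °C with a leader intron, with a counting interval of -98.8 to 26.8 that covers 0, and fell by 116 without, with an interval of -216.9 to -15.1. When an overlap of 50 bp or more with 5′ UTR exon was asked for in place of the centre, genes with a leader intron rose from 1668 (50.2%) to 1880 (56.6%), and genes without from 4165 (23.4%) to 4976 (27.9%). In genes without a leader intron the counts by centre and by overlap thus went opposite ways. In genes with one, the count by centre had no clear direction. This contrast did not hold in all settings. With genes that overlap no other gene, the change without a leader intron was -65, with an interval of -147.3 to 17.3. With equal numbers of regions, the change with a leader intron was -68, with an interval of -130.5 to -5.47.

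Width was compared in pairs, regions that overlap only each other. Over 1027 pairs whose 16 °C region was centred in a 5′ UTR exon, the median widths were 160 and 200 bp, with a median ratio of 1.18 (1.11 to 1.23), with 589 wider and 403 narrower. Over 1008 pairs whose 25 °C region was centred there, the ratio was 1.17 (1.12 to 1.25). All 12832 nuclear pairs had a ratio of 1.18. Pairs with a 16 °C centre in coding sequence were at 1.22 and those in introns at 1.27. With a leader intron the ratio was 1.17 over 367 pairs and without 1.14 over 351. A width at least 1.5 times larger at 25 °C was found in 397 pairs (38.7%) chosen at 16 °C and in 391 (38.8%) chosen at 25 °C, beside 36.9% of all nuclear pairs. At least 1.5 times larger at 16 °C were 226 (22.0%) and 224 (22.2%), beside 16.6% of all. Which end moved could not be read. With pairs chosen at 16 °C the median gain was 0 bp upstream and 30 bp downstream, with pairs chosen at 25 °C it was 30 bp upstream and 0 bp downstream, and with both centres in a 5′ UTR exon it was 10 bp at each end.

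Among genes with a leader intron, the 6 with the widest such regions over both lists included regulators of phosphate and of the circadian clock. PHO2, a ubiquitin-conjugating enzyme that limits phosphate uptake and whose leader is the target of the microRNA miR399, had 2 regions at 16 °C, the wider of 290 bp. At 25 °C it had a single region of 1810 bp (chr2:14281101-14282910) that covered 83.4% of its 1225 bp of 5′ UTR exon, against 53.3% at 16 °C. AT1G48210, a protein kinase, held 3 regions of up to 280 bp at 16 °C and a single one of 1850 bp at 25 °C, and its leader cover was 60.4% and 100%. In both genes several narrow regions in 1 list stood against 1 wide region in the other. LIP1, a small GTPase that acts on the clock in the light, went the other way in width, with 1220 bp at 16 °C and 750 bp at 25 °C, while its leader cover was 76.2% in both lists. AT5G52530, which has no assigned role, had 1150 bp in both lists and the tallest of these regions, with heights of 1204 and 1270. AT5G53140, a protein phosphatase 2C, had 550 bp at 16 °C and 1250 bp at 25 °C. AT1G06890, a transporter-like protein, had 830 bp and 1070 bp, with 67.0% of its leader covered at 16 °C and 100% at 25 °C.

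The 6 genes without a leader intron chosen in the same way also held wide regions in both lists. SNF4, a subunit of the SnRK1 energy-sensing kinase, had a region of 1350 bp at 16 °C (chr1:2903541-2904890) and of 1080 bp at 25 °C, over 100% and 87.4% of its leader. YAK1, a kinase of growth control, had 720 bp and 930 bp, with heights of 506.1 and 791.6. CCT1, an enzyme of phosphatidylcholine synthesis, had 900 bp and 780 bp. AT3G04470, an ankyrin repeat protein, had 830 bp and 1150 bp, AT3G07310 740 bp and 1210 bp, and AT4G26550, a Got1/Sft2-like vesicle transport protein, 720 bp and 1060 bp. In 4 of these 6 genes the 25 °C region was the wider. In CCT1, AT3G07310 and AT4G26550 the centres lay in the 5′ UTR of another transcript and in an intron of the representative one.

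**Figure D5:**
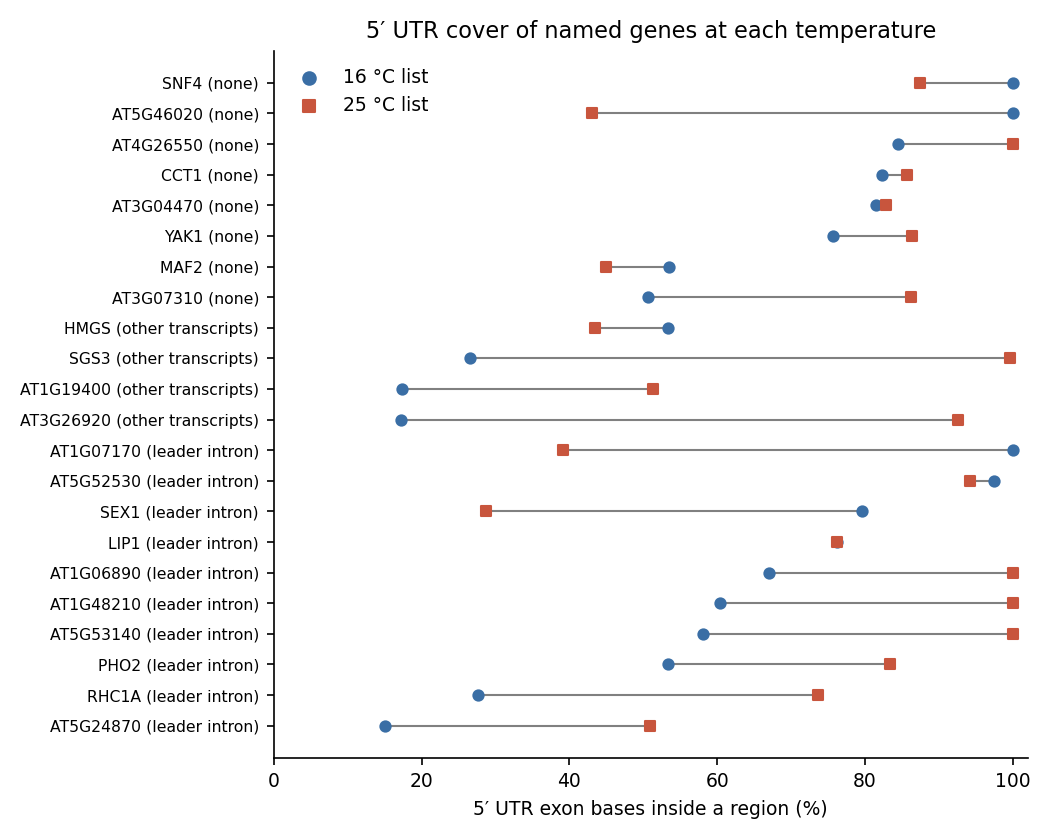
Percentage of 5′ UTR exon bases inside a region in the 16 °C list (circles) and the 25 °C list (squares) for the genes named for wide regions and for large changes in width, with the class of the gene in parentheses (leader intron, other transcripts only, none). SGS3 stood at 26.6% and 99.6% and SEX1 at 79.6% and 28.7%, and LIP1 at 76.2% in both.

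The largest width ratios among pairs of 100 bp or more in both lists are given as values only, since they were chosen by that ratio. SGS3, a protein of RNA silencing, had 190 bp at 16 °C and 1000 bp at 25 °C (ratio 5.26), and the latter ran over 99.6% of its leader. AT3G26920, an FBD and leucine-rich repeat protein, had 140 and 660 bp, and RHC1A, a RING-H2 finger protein, 130 and 600 bp. AT5G24870, a RING/U-box protein, had 110 and 500 bp, and AT1G19400 140 and 620 bp. At the other end, SEX1, the glucan, water dikinase that starts starch breakdown, had 410 bp at 16 °C and 100 bp at 25 °C (ratio 0.244). MAF2, a MADS-box repressor of flowering, had a pair of 520 and 150 bp. AT5G46020 had 370 and 120 bp, AT1G07170, a PHF5-like protein, 830 and 270 bp, and HMGS, the HMG-CoA synthase of isoprenoid synthesis, 420 and 150 bp. Both HMGS regions, and the AT1G07170 region at 25 °C, were centred in an intron of the representative transcript. In all 5 wider pairs the height was also larger at 25 °C, as for RHC1A with 250.3 and 461.1. Of the 5 narrower ones it was smaller at 25 °C for SEX1, AT5G46020 and HMGS and larger for MAF2 and AT1G07170.

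Some leaders held a region in a single list, with nothing overlapping it in the other, and the tallest of these are named. At 25 °C only, SYP51, a syntaxin of vesicle fusion, had regions of up to 280 bp and height 708.4, and its leader cover was 0 at 16 °C and 64.3% at 25 °C. Its widest region was centred in an intron of the representative transcript. AT3G06130, a protein with a heavy metal domain, had 390 bp, AT5G20700 230 bp, and LRB1, a BTB protein that acts in light signalling, 240 bp with height 529.9. The leader of LRB1 was nonetheless covered over 21.5% at 16 °C by regions centred elsewhere. At 16 °C only, CR4, a receptor kinase of epidermal cell fate, had 320 bp and height 510.9 over 55.0% of its leader. ERL2, an ERECTA-family receptor kinase of stomatal patterning, had 220 bp, CW7 200 bp over 58.0% of its leader, and AT5G10650, a RING/U-box protein, 210 bp. The ERL2 region was centred in an intron of the representative transcript. At 25 °C the leader cover of CR4, ERL2 and CW7 was 0 and that of AT5G10650 0.738%.

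The study's lists of genes were taken next. The study chose genes with differential splicing at any of its time points (DiS genes) and genes with differential expression (DEGs), here those of day 1. They were chosen in plants given the same change of temperature, so they are not independent of the design. Of 474 DiS genes with 5′ UTR exon sequence, 147 (31.0%) held a region centred there at 16 °C and 161 (34.0%) at 25 °C. Of 1209 DEGs of day 1, 119 (9.84%) and 112 (9.26%) did so. The difference was 21.2 points (16.8 to 25.7) and 24.7 points (20.2 to 29.3). DiS genes had a leader intron in 25.7% of cases and DEGs in 11.1%. The median length of 5′ UTR exon was 273.5 bp in DiS genes and 176 bp in DEGs, against 190 bp over all genes. Length was not matched in these shares. Among genes with a leader intron alone, 59 of 122 DiS genes (48.4%) held a region in each list, against 29 (21.6%) and 30 (22.4%) of 134 DEGs. Among genes with none, it was 18.2% and 18.6% of 236 DiS genes and 7.48% and 6.56% of 976 DEGs. Over all genes the shares were 33.5% and 32.4% with a leader intron and 10.3% and 9.63% with none, so within both classes the DiS genes lay above and the DEGs below the level of all genes. Expression level was not among the files used here, and its part in these shares was not tested.

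Of 18 genes that the study names, 6 (33.3%) held a region centred in the leader at 16 °C and 11 (61.1%) at 25 °C, beside 16.2% and 15.5% of all genes. Their leaders were long, with a median of 410 bp against 190 bp over all genes. The study named several of these genes from the same ChIP-seq data, some of them for changes at 25 °C. Neither the shares nor the rise at 25 °C are thus independent of how the genes were chosen. Among the flowering repressors of the MADS-box family, FLM (listed as MAF1, AT1G77080) held 3 regions at 16 °C and 5 at 25 °C, and its leader cover was 26.0% and 51.8%. MAF2 (listed as AGL31) held 4 and 3, with 53.5% and 45.0%. In both genes the centres of the widest regions were in 5′ UTR exon of another transcript and in an intron of the representative one. MAF3 held 1 in each list, with 30.3% and 62.4%. FCA, an RNA-binding protein that promotes flowering, held 5 regions at 16 °C and 1 at 25 °C, while its cover was 74.6% and 79.6%. In both lists its widest region was centred in an intron of the representative transcript. VIL2 (listed as VEL1), a PHD finger protein of vernalization, had a region of 450 bp at 16 °C that covered most of its leader, with 96.6% against 22.5% at 25 °C. SPL2, a transcription factor of the phase change, had 0 regions at 16 °C and 2 at 25 °C. ARF2, an auxin response factor, had a region of only 50 bp at 25 °C, and its cover was higher at 16 °C, with 79.0% against 52.1%. For ARF2 the count of centres and the cover thus pointed in opposite ways. U2AF65B (AT1G60900), a factor that recognises the 3′ splice site, had none of its short leader of 114 bp inside regions at 16 °C and 100% of it at 25 °C.

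Of 20 genes for serine/arginine-rich (SR) and related splicing proteins, 14 had a leader intron, and 8 (40.0%) held a region centred in the leader at 16 °C and 7 (35.0%) at 25 °C. Of the 14, 6 (42.9%) did so in each list, beside 33.5% and 32.4% of all genes with a leader intron. RS40 had a region of 1010 bp at 16 °C and of 350 bp at 25 °C. SCL33 had a region at 25 °C only. Its 1420 bp of 5′ UTR exon over all transcripts were nonetheless covered over 21.0% at 16 °C and 36.5% at 25 °C. RS2Z33 held 2 regions at 16 °C and 1 at 25 °C, with 68.3% and 39.6% of its leader covered. SR34b held a region at 16 °C only, yet its cover was higher at 25 °C, with 77.1% against 54.7%. The widest regions of SCL33, RS2Z33, SR34b and, at 25 °C, RS40 were centred in an intron of the representative transcript.

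Of 22 clock genes with 5′ UTR exon sequence, 8 (36.4%) held a region at 16 °C and 10 (45.5%) at 25 °C, beside 16.2% and 15.5% of all genes. The Wilson intervals were 19.7% to 57.0% and 26.9% to 65.3%. Clock gene leaders were long, with a median of 388.5 bp against 190 bp over all genes, and length was not matched. LHY, a morning MYB-like factor, had regions of 710 and 420 bp, and its leader of 810 bp was covered over 77.7% and 70.4%. PRR3, a pseudo-response regulator, held 2 regions at 25 °C and none at 16 °C, with cover of 0 and 45.2%. The wider of them was centred in an intron of the representative transcript. PRR7 held no centre in either list, while regions covered 100% of its leader at 16 °C and 30.5% at 25 °C. RVE1 had 380 and 620 bp, with 66.2% of its leader covered in both. Of 15 genes of light and temperature sensing, 4 (26.7%) held a region at 16 °C and 6 (40.0%) at 25 °C, with a median leader of 470 bp. The photoreceptor PHYA had 1 at 16 °C and 2 at 25 °C, with cover of 12.4% and 49.8%, and CRY2 had 2 and 1, with 43.4% and 22.4%. In both lists the widest PHYA region was centred upstream of the representative transcript, and the widest CRY2 region in an intron of it. PIF4, a growth-promoting factor of warm temperature, was at 0 and 27.8%.

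Of 10 genes known for upstream open reading frames, 2 (20%) held a region at 16 °C and 4 (40.0%) at 25 °C, with Wilson intervals of 5.67% to 51.0% and 16.8% to 68.7% that hold the 16.2% of all genes at 16 °C and not the 15.5% at 25 °C. Their leaders had a median of 546 bp. SAMDC, of polyamine synthesis, held 1 in each list, of 170 bp in its second leader exon at 16 °C and of 140 bp in its first at 25 °C. SAC51, a transcription factor gene whose translation is controlled through its leader, held 2 in each, with cover of 24.5% and 38.1%. Of the S1-group genes, bZIP1, bZIP2, bZIP11 and bZIP44 held none and their leaders were at 0 in both lists, whereas bZIP53 held 2 at 25 °C, with cover of 18.7% and 61.8%.

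Of 24 genes known for a leader intron, 16 had it in the representative transcript. Of the 24, 15 (62.5%) held a region at 16 °C and 14 (58.3%) at 25 °C, beside 16.2% and 15.5% of all genes. Of the 16, 9 (56.2%) and 10 (62.5%) did so, beside 33.5% and 32.4% of all genes with a leader intron. The leaders of the 24 genes had a median of 462.5 bp, against 331 bp over all genes with a leader intron, and length was not matched. The elongation factor 1-alpha gene AT1G07940 held 3 at 16 °C and a single one of 860 bp at 25 °C, with 60.8% and 96.7% of its leader covered. The histone H3.3 gene AT4G40040 had 860 bp at 16 °C and only 40 bp at 25 °C, with 85.2% and 33.0%. UBQ10 and UBQ4, ubiquitin genes with a leader intron, were at 0 in both lists. The actin, ubiquitin, elongation factor and H3.3 genes have near-identical copies that can share reads, so their values are uncertain. Of the 5 meristem genes none held a region, and of the 5 leaf genes none did at 16 °C and 3 at 25 °C, among them RCA and LHCA3. RCA overlaps another annotated gene, and the LHCA3 region was centred in an intron of the representative transcript.

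Protein families, taken from the words of the annotated product names, differed in how often their leaders held a region. Helicases had 24.8% at 16 °C and 18.8% at 25 °C of 117 genes, RING or zinc finger proteins 23.6% and 20.9% of 771, and protein kinases 23.2% and 23.3% of 1250. Translation factors had 26.4% and 20.8% of 72, proteasome subunits 18.6% and 20.9% of 43, and ribosomal proteins 14.4% and 16.8% of 368. Pentatricopeptide repeat proteins of the organelles had 15.7% and 11.9% of 235, although only 5.11% of them had a leader intron and their leaders had a median of 101 bp. DNA-binding transcription factors had 10.4% and 12.3% of 374, leucine-rich repeat proteins 11.9% and 10.3% of 194, and F-box proteins 7.89% and 11.7% of 266. Cytochrome P450 genes were lowest, with 2.43% and 4.37% of 206. Beside these stand the 16.2% and 15.5% of all genes.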

How the data were processed

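H3K36me3 was measured by ChIP-seq in 4 samples per temperature, and H3 in 3, not analysed here. The authors mapped reads to TAIR10 (Bowtie2 in the submitters' notes, Bowtie in the study's methods, no version given) and called regions in DANPOS2 (Dpeak), after extension of reads to 150 bp and pooling of replicates into 1 list per temperature. The sources used here do not say whether H3 served as background. Each deposited region has coordinates in steps of 10 bp, a height, which is a coverage signal, and the −log10 of its p-value.

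From these, positions were compared with RefSeq gene models on TAIR10.1 (nuclear chromosomes equal in length to those of TAIR10). A region was read as the bases from start plus 1 to end. The representative transcript is the one with the longest coding sequence, then the longest mRNA. Shares have Wilson and differences Newcombe 95% intervals. Ratios of densities have 95% intervals from counts and medians from order statistics. No test across replicates was possible. Calculations used Python 3.11.15, numpy 2.4.6, pandas 2.3.3 and scipy 1.17.1 and were tested on simulated regions.

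Named genes held a region centred in a 5′ UTR exon and, for the first 3 rules, overlapped no other gene. They were the 6 with and 6 without a leader intron with the largest summed width over both lists, the 5 largest and 5 smallest width ratios among pairs of 100 bp or more, the 4 tallest regions found in 1 list only, the 2 genes with the tallest region of each list of known genes, and each of the 18 study genes that held a region. Other genes of the lists (PRR7, PIF4, the bZIP genes, UBQ4 and UBQ10) were named after their values were seen. Regions and gene lists were chosen with earlier results of these data known.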

Additional observations from a re-analysis of the deposited data

Results flagged for a closer look

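Regions outside the nuclear chromosomes were used in no comparison. The 16 °C list held 123 of them and the 25 °C list 156. Mitochondrial were 122 and 155, with a median height of 599.1 and 539.1, and 1 in each list was in the chloroplast, with heights of 49406 and 44497. They are listed because they are signal outside the main measurement. The H3 samples were not analysed here and were not set beside them.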

How the results depend on the processing

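Of 92 values recomputed under alternatives, 44 stayed within a set limit of the main value, 46 moved by more and 2 reversed. The limit was the counting interval of the main value. For changes in the number of genes it was 1.5 times that value. For the place of the profile maximum it was 1 bin of 100 bp to either side. In the order 16 °C and 25 °C, the difference between leader intron classes in the share of genes was 14.3 and 15 points with the regions above the median −log10 p (the stronger regions), 14.7 and 14.9 with regions wider than 150 bp, 26.9 and 28.7 with an overlap of 50 bp, 13.3 and 13.4 within bins of 5′ UTR exon length, and 19.9 and 20 within bins of gene length. For covered sequence it was 7.01 and 9.96 points with stronger regions and 7.63 and 10.2 with wider ones. It was 10.8 and 13.5 with genes that overlap no other, and 6.54 and 8.84 within distance bins of the representative transcript. The density ratio was 2.36 and 2.86 with stronger regions and 2.64 and 2.82 with wider ones. The profile maximum of leader intron genes at 25 °C moved from 400 to 600 bp with genes that overlap no other. The width ratio of pairs chosen at 16 °C was 1.32 with stronger and 1.27 with wider regions. The share overlapped in the other list was 73.4% and 60.5% with stronger regions, 79.7% and 62.4% with wider ones, 16.0% and 16.1% with reciprocal overlap, and 55.7% at 25 °C with equal numbers of regions. The change in genes from 16 to 25 °C was, with a leader intron, -4 with stronger regions, -5 with wider ones, -19 with genes that overlap no other, -58 by any transcript and -68 with equal numbers. Without one it was -66 with wider regions, -65 with genes that overlap no other and -218 with equal numbers. With an overlap of 50 bp it reversed, to 212 and 811. DiS genes minus DEGs was 13.5 and 14.6 points with stronger regions, 14.1 and 14.0 with wider ones, and 39.6 and 45.1 with an overlap of 50 bp. The causes were not tested. No paired analysis was possible because each list pools its replicates, and none could be left out for the same reason.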
